A study of Rattus norvegicus with 18 samples.

Results

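Rat heart allografts taken 7 days after transplantation were compared with allografts taken after 1 day, to see how the transcripts of a graft differ between the first day and the end of the first week. The comparison rests on 6 of the 18 arrays of the study, which were chosen by their tissue and day labels and by no measured value. They are 3 day 7 arrays and 3 day 1 arrays, 1 for each of 3 treatments, and each day 7 array was paired with the day 1 array of the same treatment. The 3 heart arrays of day 3 entered the same fit and give the course in between. Donor hearts came from Wistar Furth rats (WF, RT1.Au) and were placed in the abdomen of ACI recipients (RT1.Aa), beside the recipient's own heart, per the labels. Donors and recipients were adult males. One recipient group was untreated. A second group received cyclosporine, which blocks calcineurin in T cells, by gavage at 10 mg/kg/day on days 0 to 2, which the labels call sub-therapeutic. The third group received the same course plus 1 mg/kg of the allochimeric peptide [a1h1/u]-RT1.Aa into the portal vein at transplantation. Each graft thus carried a full donor-recipient mismatch and the injury of surgery. The labels name no ungrafted heart, no graft between rats of 1 strain and no control injection. The arrays therefore separate days and treatments, and not rejection from healing. All samples carry the strain label Wistar Furth, although leukocytes of the ACI recipient can enter the graft. Nothing in the labels tells whether 1 animal gave several arrays or whether animals were pooled. With 1 array per treatment and day, there are no replicate grafts. Each p-value sets the mean day difference only against the scatter between the 3 treatments in their course over the days, moderated over all probe sets. That scatter may be technical, or come from animals or treatment, which these arrays cannot tell apart.

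A heart graft from an unlike donor meets an early inflammation from surgery and loss of blood flow, with neutrophils and chemokines, and later an infiltrate of T cells and macrophages that recognise donor antigens. T cell genes, interferon-induced genes and genes of fatty acid oxidation are the usual readouts of this course. The 3 lists of such genes used here (193 genes tested, of which 189 were called) were set aside, and the results below describe the genes outside them. In the graft itself, cardiomyocytes carry the action potential with potassium, sodium and calcium channels and answer to adrenergic and muscarinic receptors. The capillary wall supplies them with fatty acids, oxygen and water, and fibroblasts, epicardial cells and Schwann cells fill the interstitium and the nerves.

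Array signals were compared as log2(signal + 16), a scale on which a difference of 1 is close to a 2-fold change for well-expressed genes and less for weak ones. Values of 3 arrays are given in the order untreated, cyclosporine, and cyclosporine plus peptide. A gene was called when limma's moderated test gave a Benjamini-Hochberg adjusted p below 0.05 over all 19737 probe sets tested, and "rose" and "fell" are used for called genes only. Probe sets were tested if bright enough in at least 3 heart arrays, so a gene dim on all days but 1 was tested only through that day. From day 1 to day 7, 6101 probe sets (30.9%) were called higher and 6674 (33.8%) lower. By at least 1 on the log2 scale, 1469 (7.44%) were higher and 1022 (5.18%) lower. Counted once per gene, 33.7% of 11159 tested genes rose and 33% fell, with a median difference of 0.001, and this is the background for each list below. In 8100 of these 11159 genes, which is most of them, the 3 day 7 signals did not overlap with the 3 day 1 signals. A lack of overlap between the days therefore does not set a gene apart. The heart arrays had similar scales, with median signals of 210.2 to 231.2. The ratio of 3′ to 5′ probe sets of actin, a sign of RNA quality, was 1.84, 2.27 and 2.44 on day 1 and 1.41, 1.41 and 1.43 on day 7, while that of GAPDH was 1.495 to 1.574 on day 1 and 1.513 to 1.542 on day 7. Whether the actin ratio has a part in the day differences was not tested. Cardiomyocyte markers were abundant on every array, with Nppa at 14573, 14810.2 and 14160.4 on day 1 and 17697, 17906 and 17157 on day 7, so the tissue label held.

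The 25 largest rises outside the usual lists were in genes of varied roles, and the 2 largest were in receptors. Tnfrsf14, the herpesvirus entry mediator and a receptor of the TNF family, had signals of 52.4, 121 and 59.2 on day 1 and 2472, 3218 and 3310.4 on day 7. It rose by 5.07 ± 0.38 (log2 mean of 3 pairs, SE of the fit over all 9 heart arrays, limma adjusted p = 1.54e-05). Every day 7 array lay above every day 1 array. Fcgr3a, a low-affinity receptor for IgG, went from 264, 383 and 328 to 12204, 8586 and 8639.8, a rise of 4.84 ± 0.17 (adjusted p = 9.18e-07), with the untreated graft highest on day 7. Ptprcap, which binds the phosphatase CD45, rose by 3.65, and Runx3, a transcription factor of cytotoxic lymphocytes, by 3.65. The GTPase-activating proteins Tagap and Sh3bp1 rose by 3.33 and 3.64, and Sytl3, a Rab27-binding protein of secretory granules, by 3.42. With an offset of 64 in place of 16 the Sytl3 difference was 2.19, since its day 1 signals were low, at most 18.5. The T cell arrays of days 1 and 7 show which of these transcripts T cell samples also hold. Those samples also held markers of other cells, such as Ms4a1 of B cells (2984 to 9721) and C1qa of macrophages (6924.5 to 9028). A high signal there therefore does not show which cell type made the transcript. In those 6 arrays, Tnfrsf14 lay at 7536 to 9485, Ptprcap at 8279 to 10309 and Tagap at 2529 to 4229.7, above all of their day 7 graft signals. Sytl3 lay at 305 to 629.9, against 305, 308 and 245 in the day 7 grafts, of which the peptide graft was below every T cell array. In whole tissue, more cells of a type and more RNA per cell cannot be told apart.

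**Figure D1:**
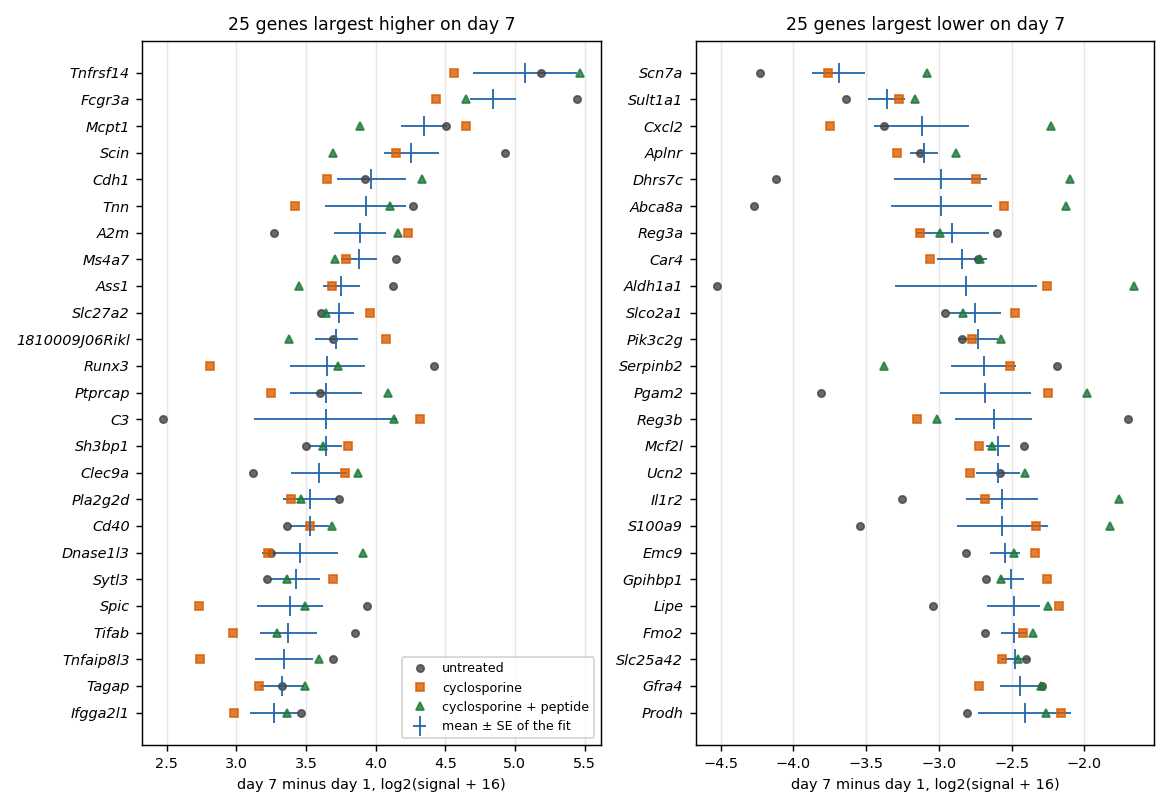
Day 7 minus day 1 differences in log2(signal + 16) for the 25 genes with the largest rises (left) and the 25 with the largest falls (right) outside the T cell, interferon and fatty acid oxidation lists. Black circles, orange squares and green triangles are the untreated, cyclosporine and cyclosporine plus peptide pairs, and blue marks with bars are the mean ± SE of the fit; C3 and Aldh1a1 show the widest bars, 0.51 and 0.49.

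Ms4a7, a membrane protein of macrophages, had signals of 182, 256 and 270.5 on day 1 and 3497, 3753 and 3732 on day 7 and rose by 3.88 ± 0.13 (adjusted p = 8.99e-07). Its 3 day 7 arrays were close together and far above the day 1 arrays, whereas T cell arrays held 255 to 391. Clec9a, a receptor of cross-presenting dendritic cells, rose by 3.59 (range 58.3 to 70.0 on day 1 and 733 to 1154 on day 7), and the co-stimulatory receptor Cd40 rose by 3.53 (range 105 to 128 on day 1 and 1383 to 1581 on day 7). Spic, a transcription factor of iron-recycling macrophages, rose by 3.39, Dnase1l3, a secreted nuclease, by 3.46, and Pla2g2d, a secreted phospholipase A2, by 3.53. Dnase1l3 was also high on the T cell arrays (6221 to 10684), as was Spic (1095 to 2407). Tifab rose by 3.37 and Tnfaip8l3 by 3.34. Ifgga2l1, named as an interferon-inducible GTPase but on none of the lists, rose by 3.27.

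Enzymes, plasma proteins and transporters were also among these 25 genes. Ass1, argininosuccinate synthase, which makes the precursor of arginine, had signals of 384, 318 and 359 on day 1, 808, 421 and 521 on day 3 and 6958, 4279.6 and 4087 on day 7. The rise to day 7 was 3.75 ± 0.13 (adjusted p = 9.45e-07), the untreated graft was highest, and T cell arrays held 27.8 to 186. A2m, alpha-2-macroglobulin, a protease inhibitor of the rat acute phase, went from 119, 92.0 and 98.2 to 1289, 2013 and 2032 and rose by 3.89 ± 0.18 (adjusted p = 2.88e-06). Both treated grafts lay above the untreated graft on day 7, and T cell arrays held 52.8 to 98.7. Complement C3 had signals of 635, 366 and 488 on day 1 and 3603, 7603 and 8842 on day 7, a rise of 3.64 ± 0.51 (adjusted p = 0.000403), with the treated grafts again above the untreated graft. Slc27a2, which activates very long chain fatty acids, was flat between day 1 (109, 114 and 109) and day 3 (117, 109 and 108) and rose by 3.74 to 1510.0, 2005 and 1549 on day 7. Its level in T cell arrays was 434 to 719. The actin-severing protein Scin rose by 4.26 and E-cadherin (Cdh1) by 3.97, and the T cell arrays held 441 to 784 of Scin and 2176 to 4330.4 of Cdh1. The predicted gene 1810009J06Rikl rose by 3.72, with signals of 31.1 to 33.2 on day 1 and 489 to 778 on day 7.

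Tnn, tenascin N, an extracellular matrix protein, followed another course. Its signals were 11.5, 20.7 and 32.2 on day 1, 1841, 1275 and 1089 on day 3 and 515, 376 and 809.7 on day 7. It rose by 5.25 to day 3 (adjusted p = 0.00088), then fell by 1.32 to day 7 (adjusted p = 0.00556), and remained 3.93 ± 0.29 above day 1. T cell arrays held 35.1 to 58.9. Mcpt1, a chymase of mast cells, rose by 4.35 ± 0.16 (adjusted p = 1.15e-06) from 15.8, 13.1 and 26.3 to 705, 714 and 609. On day 3 it was 64.8, 55.6 and 53.1, so Mcpt1 passed the brightness filter only through its day 7 arrays. Its p-value is therefore no separate support for the rise. Of the 5 mast cell genes tested, Cma1 and Cpa3 rose as well (1.96 and 1.78), while the tryptases Tpsab1 and Tpsb2 fell, by 1.26 and 0.28. Without the cyclosporine arrays Tpsab1 was too dim to be tested and Tpsb2 was not called (-0.32, adjusted p = 0.05), nor was Tpsb2 without the peptide arrays (-0.24, adjusted p = 0.104). Kit, Fcer1a, Ms4a2 and Hdc, which also mark mast cells, were too dim to be tested. In T cell arrays, too, Mcpt1 was 108 to 432 on day 1 and 869 to 2028 on day 7.

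The 25 largest falls also had varied roles. Scn7a, a sodium channel of glial and other non-excitable cells, had signals of 1939, 1762 and 1977 on day 1, 605, 730.4 and 851 on day 3 and 88.5, 115 and 219.6 on day 7. It fell by 3.69 ± 0.18 (log2 mean of 3 pairs, SE of the fit, limma adjusted p = 3.2e-06), and the 3 days did not overlap. Aplnr, the apelin receptor, went from 952, 1084 and 1046 to 94.4, 96.6 and 128 and fell by 3.10 ± 0.10 (adjusted p = 8.82e-07), most of it after day 3, where signals were 750.2, 885 and 822. Sult1a1, a phenol sulfotransferase, went from 1792, 1231 and 1433 to 129, 113 and 146, a fall of 3.36 ± 0.12 (adjusted p = 1.11e-06). In none of the 3 did a day 7 array reach the lowest day 1 array, though days did not overlap in most tested genes. The T cell signals of the 3 genes were 50.9 to 82.8, 32.8 to 70.8 and 83.8 to 152. Slco2a1, which takes up prostaglandins, fell by 2.75, and Fmo2, a flavin monooxygenase, fell by 2.48. Pik3c2g, a class II phosphoinositide kinase, first rose by 0.67 to day 3 (adjusted p = 0.0112) and then lay 2.73 below day 1 on day 7.

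The largest falls included genes of muscle and mitochondrial metabolism. Dhrs7c, a dehydrogenase of the sarcoplasmic reticulum, had signals of 2690.1, 3080.5 and 2830.2 on day 1 and 139.5, 446 and 648 on day 7, a fall of 2.99 ± 0.32 (adjusted p = 9.51e-05). The untreated graft was lowest on day 7. Pgam2, the muscle phosphoglycerate mutase, showed the same order on day 7, at 276, 897 and 1123 against 4077, 4333 and 4490.2 on day 1, and fell by 2.68. Slc25a42, the mitochondrial carrier of coenzyme A, fell by 2.48, Prodh, proline dehydrogenase, by 2.41, and Lipe, hormone-sensitive lipase, by 2.49. Gfra4, a receptor of the GDNF family, fell by 2.44, to signals of 24.3 to 42.5. Emc9 was called lower (-2.55) on the probe set with the higher mean, but a second probe set of Emc9 lay 1.09 higher on day 7, so its direction is not settled.

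The chemokine Cxcl2 and some neutrophil genes were among the falls. Cxcl2, which draws neutrophils, had signals of 1834, 1967 and 1496 on day 1, 3834, 4025 and 2222 on day 3 and 162, 132 and 307 on day 7, and fell by 3.12 ± 0.33 (adjusted p = 8.14e-05). The calprotectin subunit S100a9 went from 6020.3, 2239 and 3170.3 to 503, 432 and 885 and fell by 2.56, and Il1r2, a decoy receptor for interleukin 1, from 1782, 1041 and 954 to 172, 148 and 270.5, a fall of 2.57. For both genes the untreated graft was highest on day 1. Of the 9 neutrophil markers tested, 5 fell, among them S100a8 (-2.40) and Mmp8 (-1.18, or -0.77 without the untreated arrays), and Lyz2, which macrophages also make, rose by 0.38. The summed signal of the 10 neutrophil markers with a probe set was 29120.0, 18727 and 20923 on day 1 and 17048, 17520.0 and 20309 on day 7, so the groups overlapped in the sum. The untreated T cell array of day 1 stood apart in these markers, with S100a9 at 17774. The secreted lectins Reg3a and Reg3b, known from injured epithelium and heart, fell (-2.91 and -2.62). Reg3a signals were 573, 498 and 493 on day 1, 414, 219.6 and 116 on day 3 and 81.2, 42.7 and 47.9 on day 7, and Reg3b signals were 7569.7, 7542 and 7877 on day 1 and 2314, 834 and 961 on day 7. Urocortin 2 (Ucn2), a peptide of the corticotropin-releasing factor family, fell by 2.59, and Serpinb2, a plasminogen activator inhibitor, fell by 2.69.

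Genes of cardiac excitability were mostly lower on day 7. Of 19 ion channel genes tested, 14 fell and 2 rose, with a median difference of -0.73 against 0.001 over all genes. Kcnd2, a subunit of the transient outward potassium current, had signals of 463, 498 and 531 on day 1, 259, 376 and 318 on day 3 and 154, 179 and 173 on day 7 and fell by 1.47 ± 0.09 (adjusted p = 8.28e-06). Kcnj5, of the acetylcholine-gated channel of pacemaker and atrial cells, fell by 1.41 ± 0.12 from 1063, 959 and 1076 to 427, 388 and 325. Both genes were already lower on day 3 (adjusted p = 0.00432 and 0.019). Kcnh2, which carries the rapid delayed rectifier current, was flat to day 3 (376, 394 and 392, then 302, 372 and 381) and fell to 155, 164 and 168 on day 7 (day 7 minus day 1, -1.18 ± 0.08). Kcnj8, an ATP-sensitive channel that pericytes and smooth muscle also use, fell by 1.39. The pacemaker channel Hcn2 rose by 0.48 ± 0.07 from 377, 388 and 388 to 504, 571 and 549, a level reached by day 3. The calcium channel Cacna1g was called higher by 0.37, but not without the cyclosporine arrays (0.34, adjusted p = 0.0748) or without the peptide arrays (0.32, adjusted p = 0.067). The remaining 3, Kcnd3, Kcnq1 and Hcn4, did not pass the test (-0.26, -0.26 and -0.19). Kcne1, Kcnj2 and Kcnj12 were too dim to be tested. In the treatment pairs the list's median was -0.86, -0.66 and -0.72.

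Receptor and second messenger genes went the same way. Of 22 adrenergic, muscarinic and cyclic nucleotide genes tested, 14 fell and 3 rose (median -0.35). Apart from Aplnr, the largest falls were in Rgs5 and Rgs4, which switch off G protein signals. Rgs5 had signals of 2446, 2148 and 2219 on day 1 and 452, 588 and 829.8 on day 7 and fell by 1.88 ± 0.17 (adjusted p = 3.41e-05), and Rgs4 went from 1521, 1502 and 1469.6 to 316, 429 and 605, a fall of 1.75 ± 0.15. Both were lowest in the untreated graft and highest with peptide on day 7. Adra1b, an alpha-1 adrenergic receptor, fell by 1.22 ± 0.10 from 1997, 2524 and 2365 through 1088, 1696 and 1629.7 on day 3 to 924, 991 and 1004. The phosphodiesterase Pde3b rose by 1.94 (range 99.9 to 143 on day 1 and 495 to 596 on day 7), with 761 to 1178 in T cell arrays. Arrb1 (beta-arrestin 1) and Rgs2 rose by 0.89 and 0.39.

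Most transcription factors of the heart fell. Of 26 tested, 21 fell, 1 rose and 4 did not pass, with a median of -0.44. Irx3, which patterns conduction tissue, fell by 1.12 ± 0.13 from 1393, 1351 and 1267 to 621, 642 and 564. Thrb, a thyroid hormone receptor, fell by 1.10 ± 0.06 from 1769, 1836 and 1885 to 743, 905 and 906. Ppargc1a, the coactivator of mitochondrial biogenesis, fell by 1.08 from 955, 1184 and 1134 to 415, 562 and 547, and Gata6 by 1.00 from 1438, 1538 and 1589 to 699.9, 757 and 801. For all 4 genes each day 7 array lay below each day 1 array, though most tested genes also had days that did not overlap. Hopx, a homeodomain protein that is also made in T cells, was the gene that rose, by 1.05. Its range was 1391 to 1741 on day 1 and 2955 to 3398 on day 7. The untreated T cell array of day 1 held 2842. The other T cell arrays of days 1 and 7, at 477 to 907, lay below every graft array.

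**Figure D2:**
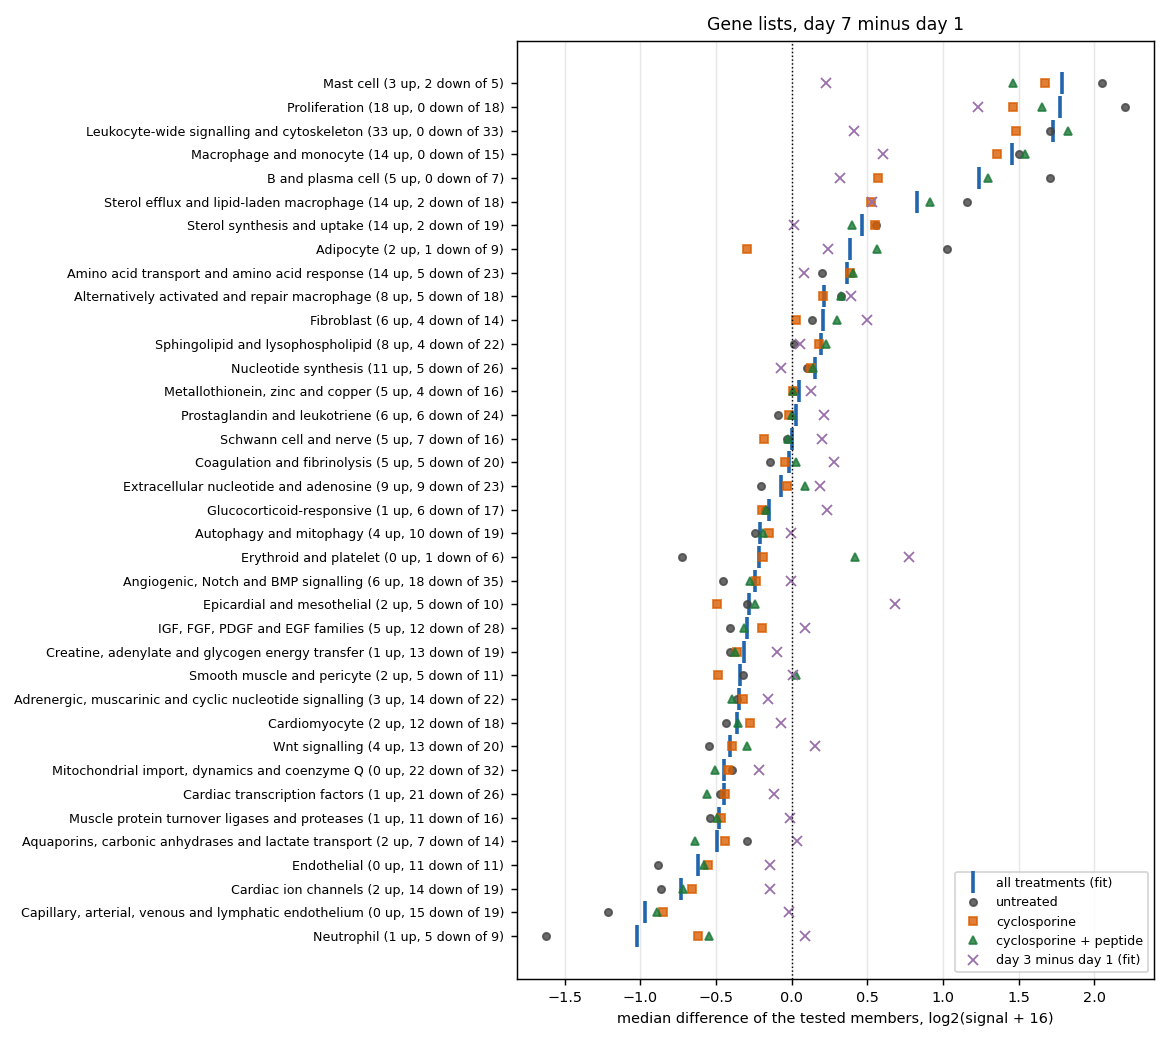
Median day 7 minus day 1 difference in log2(signal + 16) over the tested members of each gene list, from the fit (blue bars) and in each treatment pair (circles, squares, triangles), with the day 3 minus day 1 median as purple crosses. Counts of called genes stand beside each name and the dotted line is the median over all tested genes, 0.001; the day 3 crosses of the channel, transcription factor and endothelial lists lie between -0.14 and -0.12, closer to that line than their day 7 bars.

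Most energy transfer transcripts on the list fell. Of 19 creatine, adenylate and glycogen genes tested, 13 fell and 1 rose (median -0.31). Besides Pgam2, the muscle enolase Eno3 went from 3683, 3953 and 4129.5 to 535, 1053 and 1007 and fell by 2.22 ± 0.16 (adjusted p = 1.24e-05). The creatine transporter Slc6a8 fell by 1.24 from 2929, 2966 and 2940.2 to 1183, 1236 and 1310.4, and the muscle creatine kinase Ckm by 1.02 from 14375, 13968 and 13878 to 5465, 8263 and 7375. Ckb, the brain type of creatine kinase, was the gene that rose, by 0.63 ± 0.05 from 1228, 1241 and 1233 to 1872, 2051 and 1845, after a lower level on day 3 (1025, 1109 and 1008). T cell arrays held 424 to 568 of Ckb, below each graft array of day 7. Of 16 muscle ligase and protease genes tested, 11 fell and 1 rose (median -0.48). The muscle ubiquitin ligase adaptors Asb14, Klhl38, Klhl41 and Asb11 fell by 1.64, 1.51, 1.24 and 1.05. Fbxl22, an F-box protein of the sarcomere, rose by 1.30 ± 0.09 (adjusted p = 1.34e-05), with 918, 1566 and 1379 on day 1, 759, 981 and 985 on day 3 and 2708, 3739.9 and 2994 on day 7. It was lower on day 3 than on day 1 (-0.47, adjusted p = 0.0104), so its rise came after day 3.

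Many mitochondrial genes outside fatty acid oxidation fell. Of 32 genes of protein import, dynamics and coenzyme Q synthesis tested, 22 fell, none rose and 10 did not pass (median -0.44, and -0.22 already on day 3). Without the untreated arrays 1 member was called higher. Coq8a, which supports coenzyme Q synthesis, went from 6229.8, 6658 and 6318 through 3797, 4942 and 4980.5 on day 3 to 1991, 2347 and 2379 and fell by 1.51 ± 0.07 (adjusted p = 2.61e-06). Coq7 and Coq2, enzymes of the same pathway, fell by 0.98 and 0.93, and Tfb2m, a mitochondrial transcription factor, by 1.07. Among autophagy genes, 10 of 19 fell and 4 rose (median -0.21). Pink1, the kinase that marks damaged mitochondria, fell by 1.46 ± 0.10 from 9758, 9243 and 9350.4 to 2779.8, 3605 and 4007, with the untreated graft lowest, whereas Atg3 and Atg7, of the conjugation machinery, rose by 0.62 and 0.55.

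Promoter sequence was read for 5 lists, those of ion channels, energy transfer, transcription factors, mitochondria and leukocyte-wide genes, and not for the marker lists. RefSeq promoters of the rat build GRCr8, 250 bases before to 50 after each gene start, matched 9288 of the 11159 tested genes. The letters TCAAGGTCA, bound by estrogen-related receptors, were searched on both strands. A gene counted once if any of its windows held them. They stood in 0.226% of the tested genes with a promoter and in 0.441% of all 27457 genes with a promoter of this length. They were in 1 of 784 genes that rose by at least 1 and in 0 of 436 that fell by at least 1. Of 14 ion channel genes with a promoter, 1 held them (7.14%), Hcn2, which rose. Of 29 mitochondrial genes, 1 held them (3.45%), Timm8b, an import chaperone that fell by 0.50. None of the energy transfer, transcription factor and leukocyte-wide genes with a promoter did. Timm8b shares 195 bases of its window with that of Sdhd, a subunit of respiratory complex II on the other strand, which was looked up after its values were seen and fell by 0.32. The letters TTATGTAA, bound by the clock-output factors of the PAR family, stood in 0.506% of tested genes and 0.958% of all genes with a promoter. They were in 5 of 784 genes that rose by at least 1 (0.638%) and in 5 of 436 that fell by at least 1 (1.15%), of which Reg3a is among the largest falls. The E box CACGTG stood in 9.98% of tested genes, 7.65% of those that rose and 8.03% of those that fell by at least 1. It stood in 7.08% of all genes with a promoter. A match is a description of the sequence and shows no binding. The windows of Timm8b (chr8:59850487-59850786, plus strand) and Reg3a (chr4:112430147-112430446, plus strand) are shown because each is a match in a gene that fell. Capitals mark the matched letters, which in Reg3a are read from the opposite strand.
Timm8b: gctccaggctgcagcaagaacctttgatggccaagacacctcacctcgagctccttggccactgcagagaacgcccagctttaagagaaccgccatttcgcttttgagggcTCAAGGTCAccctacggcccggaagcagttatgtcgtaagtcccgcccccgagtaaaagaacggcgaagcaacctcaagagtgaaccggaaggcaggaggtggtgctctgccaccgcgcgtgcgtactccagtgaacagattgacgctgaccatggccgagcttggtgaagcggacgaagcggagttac
Reg3a: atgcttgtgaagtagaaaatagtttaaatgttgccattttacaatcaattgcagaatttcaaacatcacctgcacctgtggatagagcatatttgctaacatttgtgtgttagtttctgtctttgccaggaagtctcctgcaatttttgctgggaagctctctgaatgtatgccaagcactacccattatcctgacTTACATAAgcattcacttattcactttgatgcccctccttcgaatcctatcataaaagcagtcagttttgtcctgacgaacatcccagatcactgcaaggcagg

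Vessel genes fell together. All 11 general endothelial markers tested fell (median -0.62). Of 19 markers of capillary, arterial, venous and lymphatic endothelium, 15 fell and 0 rose (median -0.97), and without the untreated arrays 1 was called higher. The summed signal of the general markers was 21242, 19334 and 19782 on day 1, 18771, 18060.0 and 19166 on day 3 and 9877, 11956 and 11607 on day 7. Von Willebrand factor (Vwf), stored by endothelium for clotting, had signals of 2434, 1820.1 and 1968 on day 1 and 467, 493 and 447 on day 7 and fell by 2.10 ± 0.11 (adjusted p = 3.59e-06). The junction protein Cldn5 fell by 1.86 from 1950.2, 1983 and 1831 to 417, 536 and 618, and Pecam1 by 0.90 from 1552, 1404 and 1583 to 716, 848 and 854. T cell arrays held 826 to 1494 of Pecam1 and 122 to 219 of Cldn5.

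The 4 largest falls of the capillary, arterial, venous and lymphatic list, already counted above, were in genes by which capillaries exchange fuel, gas and water. Car4, a carbonic anhydrase on the capillary surface, had signals of 1168, 1161 and 1223 on day 1, 1337, 1206 and 819 on day 3 and 162, 125 and 172 on day 7 and fell by 2.84 ± 0.17 (adjusted p = 6.36e-06). Gpihbp1, which holds lipoprotein lipase on the capillary wall, was close to its day 1 level on day 3 (1149, 1063 and 1131, then 1073, 1086 and 1116) and fell to 167, 209.7 and 176 on day 7 (day 7 minus day 1, -2.50 ± 0.09). The water channel Aqp1 went from 7494, 6747 and 6344 to 956, 1542 and 1474, a fall of 2.39, and the glycerol channel Aqp7 from 3979.9, 3121 and 3235 to 852, 529 and 609 (difference -2.37). In the 4 genes no day 7 array reached the lowest day 1 array, though most tested genes also had days that did not overlap. Of 14 aquaporin, carbonic anhydrase and lactate transport genes tested, 7 fell and 2 rose, and Car4, Aqp1 and Aqp7 are on this list as well. The anion exchanger Slc4a3 fell by 0.92. The lactate exporter Slc16a3 rose by 0.74, mainly in the untreated graft (1429.7, 1082 and 1062 on day 1, 3107, 1564 and 1604 on day 7). Car3 was called higher by 1.07, but not without the peptide arrays (0.94, adjusted p = 0.139).

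**Figure D3:**
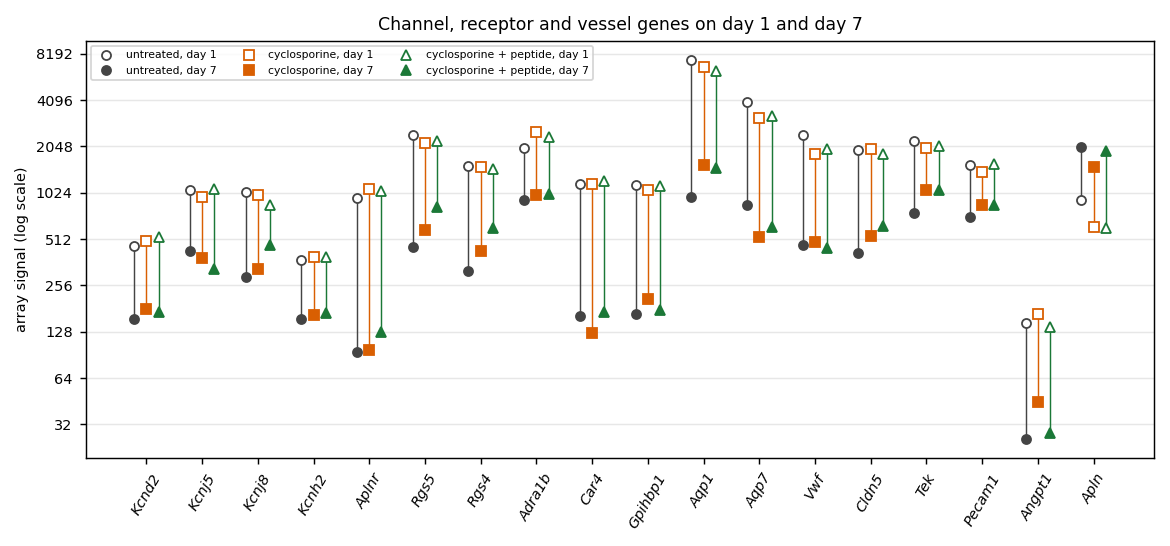
Array signals on a log scale for 18 channel, receptor and vessel genes on day 1 (open symbols) and day 7 (filled symbols), 1 pair per treatment joined by a line. Each of the 17 genes left of Apln lies lower on day 7 in each treatment, and Apln, the ligand of Aplnr, lies higher.

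Ligands and receptors of vessel growth differed in direction between pathways. The apelin receptor fell as given above, while its ligand apelin (Apln) had signals of 923, 611 and 606 on day 1 and 2039, 1506 and 1903 on day 7 and rose by 1.34 ± 0.18 (adjusted p = 0.000306). Angiopoietin 1 (Angpt1) and its receptor Tek both fell, Angpt1 by 1.78 from 145, 166 and 137 to 25.5, 44.5 and 27.9, and Tek by 1.13 from 2206, 2004 and 2057 to 754, 1062 and 1061. With an offset of 64 the Angpt1 difference was -1.14, since its signals were low. Of 35 angiogenic, Notch and BMP genes tested, 18 fell and 6 rose (median -0.24). Hey1, a target of Notch, fell by 1.93 from 778, 921 and 864 to 188, 254 and 199, and Bmp4 by 1.19 from 774, 716 and 728 to 187, 412 and 400.1. Nrp2, a co-receptor for VEGF and semaphorins that macrophages also carry, rose by 1.15, and Id2 by 0.85, with 2431 to 3179.9 of Id2 in T cell arrays. Among clotting genes 5 of 20 rose and 5 fell, near the 33.7% and 33% over all genes and no result about the list. F10, coagulation factor X, rose by 2.43 ± 0.11 from 182, 173 and 152 to 884, 1067 and 1001, and the plasminogen activator Plau by 1.48, highest in the untreated graft at 3079, 1602 and 1664. The endothelial anticoagulant thrombomodulin (Thbd) fell by 0.74, the protease inhibitor Serpine2 by 1.76 and the thrombin receptor F2rl2 by 1.04.

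In Wnt signalling 13 of 20 tested genes fell and 4 rose (median -0.41). Wnt4, a ligand, was higher on day 3 than on either side, with 121, 126 and 139 on day 1, 641, 504 and 457 on day 3 and 401, 325 and 395 on day 7, and rose by 1.43 ± 0.12 over the week (adjusted p = 3.49e-05). The secreted inhibitors went both ways, since Sfrp4 rose by 1.98 and Sfrp1 by 0.54, whereas Wif1 fell by 1.44 from 252, 273 and 269 to 90.0, 97.2 and 76.9. The receptors Lrp5, Fzd6 and Fzd8 fell by 1.31, 1.05 and 1.00. Of 28 genes of the IGF, FGF, PDGF and EGF families, 12 fell and 5 rose, near or below the 33% and 33.7% over all genes and no result about the list. Without the cyclosporine arrays 3 were called higher. Igf2, a fetal growth factor also made by adult stroma, went from 1382, 1452 and 1505 to 219.8, 326 and 376 and fell by 2.21 ± 0.12 (adjusted p = 4.53e-06). Igfbp5, a binding protein of the same ligands, fell by 1.11 and the receptor Fgfr3 by 1.02. Fgf16, a growth factor of heart muscle, fell by 1.01, and Pdgfa rose by 0.42.

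Interstitial cell markers moved in both directions. Of 14 fibroblast markers tested, 6 rose and 4 fell, near the 33.7% and 33% over all genes and no result about the list. Mfap5, a protein of elastic microfibrils, had signals of 1080.5, 1146 and 1107 on day 1, 3401, 2903 and 3254 on day 3 and 2846, 2590.2 and 2773 on day 7 and rose by 1.29 ± 0.07 (adjusted p = 3.42e-06). Col1a1 rose by 1.00 and Postn by 0.73 (0.48 without the peptide arrays), and both were highest on day 3. Tcf21, a transcription factor of resting fibroblasts, fell by 1.41 from 1101, 1152 and 1201 to 221, 531 and 633, Col15a1, a basement membrane collagen, by 1.29, and gelsolin (Gsn) by 1.35. Decorin (Dcn), a matrix proteoglycan, was called lower (-0.35, adjusted p = 0.0251), but not without the cyclosporine arrays (-0.39, adjusted p = 0.0839), and lay at -0.17 without the untreated arrays. Aldh1a1, which makes retinoic acid, went from 3721, 3509 and 3479 to 146, 722 and 1089 and fell by 2.81 ± 0.49, and Aldh1a2, of the epicardium, by 1.23 ± 0.07. The mesothelial keratins Krt18 and Krt8 fell by 1.24 and 0.64. Of 10 epicardial markers tested, 5 fell and 2 rose, or 3 and 1 without the cyclosporine arrays. The 2 that rose, Msln (0.60) and Upk1b (0.33), each lost the call without the cyclosporine arrays (adjusted p = 0.0709 and 0.111), and Upk1b also without the untreated arrays (adjusted p = 0.137).

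Of 16 nerve markers tested, 7 fell and 5 rose, near the 33% and 33.7% over all genes and no result about the list. Sox10, the defining transcription factor of Schwann cells, had signals of 152, 159 and 185 on day 1, 159, 202 and 208 on day 3 and 25.3, 44.2 and 47.3 on day 7 and fell by 1.74 ± 0.12 (adjusted p = 1.22e-05), or -1.16 with an offset of 64. Ngfr, the low-affinity neurotrophin receptor, fell by 1.10, and peripherin (Prph), an intermediate filament of peripheral neurons, by 0.71. Tubb3, the neuronal tubulin, rose by 1.17. Mbp rose by 1.14 on its brighter probe set, but the other set lay 0.41 lower on day 7, and T cell arrays held 1689.5 to 2242 on the brighter set. Of 11 smooth muscle and pericyte markers, 5 fell, among them Rgs5, Kcnj8, Smtn (-1.16) and Cspg4 (-0.81). The 2 that rose, Acta2 (0.28) and Des (0.18), were not called without the cyclosporine arrays (adjusted p = 0.131 and 0.205). Both counts of this list, too, were near or below those shares and are no result about it.

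Contractile genes fell too. Of 18 cardiomyocyte markers tested, 12 fell and 2 rose (median -0.36). Myh6, the fast myosin heavy chain, went from 12780.5, 13745 and 14296 to 4292, 9384 and 8652 and fell by 0.95 ± 0.17, with the untreated graft lowest. Titin (Ttn) fell by 0.56 and Tnni3, cardiac troponin I, by 0.54. The natriuretic peptides rose, Nppb by 0.68 ± 0.11 from 7845, 6579 and 6489 to 11454, 11228 and 10669 and Nppa by 0.28. No test was made of whether the channel list fell further than this list.

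Leukocyte-wide genes rose without exception on the list. All 33 tested genes of signalling and cytoskeleton shared by leukocytes rose (median 1.73), as did 14 of 15 macrophage and monocyte markers (median 1.46) and all 18 proliferation genes (median 1.77). The integrin Itgal rose by 2.61 and the lipid kinase subunit Pik3cd by 2.43, and T cell arrays held 3041 to 4161 of Itgal and 4905 to 7660.3 of Pik3cd. The complement subunit C1qb had signals of 1844, 1531 and 1659 on day 1 and 9553, 9444 and 9217 on day 7 and rose by 2.48 ± 0.08 (adjusted p = 8.82e-07). Its partners C1qa and C1qc rose by 2.35 and 2.27, and the lysosomal protein Cd68 by 2.13. C1q transcripts were also high on the T cell arrays (4551 to 6566 for C1qb), although macrophages are their usual source. The summed signal of the 15 macrophage markers was 36996, 35304 and 34141 on day 1 and 98497, 90998 and 94465 on day 7. Of the proliferation genes, the cyclin Ccnb2 rose by 2.44 from 166, 343 and 205 to 1398, 1351 and 1174, and its level was 1174, 900.4 and 736 on day 3. Of 7 B and plasma cell markers tested, 5 rose, among them Bank1 by 1.93 and Blnk by 1.38, though 2 were called without the untreated arrays and 2 without the peptide arrays. Cd79b, Cr2 and Tnfrsf17 were too dim to be tested.

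Macrophage genes of tissue repair went both ways. Of 18 tested, 8 rose and 5 fell, near the 33.7% and 33% over all genes and no result about the list. Folr2, a folate receptor of resident macrophages, rose by 1.62 ± 0.09 from 1288, 1373 and 1299 to 4528, 3779.5 and 4004, and the interleukin 1 antagonist Il1rn by 1.59. The chemokine Ccl17 rose by 1.55, whereas Ccl24 fell by 1.69 from 446, 751 and 642 to 114, 246 and 186. Osteopontin (Spp1) fell by 1.45, from 5801, 6967 and 6103 on day 1 and 7726, 9287 and 8679 on day 3 to 2622, 1464 and 3125 on day 7. Lyve1, of lymphatic vessels and resident macrophages, fell by 1.23, and the scavenger receptor Stab1 by 0.69 after a rise of 0.58 to day 3.

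Most genes of the sterol lists rose. Of 19 sterol synthesis genes tested, 14 rose and 2 fell (median 0.47). Mevalonate kinase (Mvk) went from 277, 249 and 245 to 590.5, 594 and 593 and rose by 1.16 ± 0.09 (adjusted p = 1.55e-05), squalene epoxidase (Sqle) rose by 0.95, and Srebf2, the transcription factor of the pathway, by 0.93. Fdft1, squalene synthase, went against the list, from 2434, 2154 and 2043 to 1007, 933 and 903, a fall of 1.21 ± 0.11, and Insig1, which retains the pathway's activator, fell by 0.25. In T cell arrays, Mvk was 699.7 to 1180.0 and Fdft1 479.9 to 854. Of 18 genes of sterol efflux and lipid-laden macrophages, 14 rose and 2 fell, or 1 fell without the cyclosporine arrays and 1 without the peptide arrays. The transporter Abcg1 rose by 1.81, the phospholipid transfer protein Pltp by 1.74 and the cholesterol 25-hydroxylase Ch25h by 1.73, highest in the untreated graft at 4103, 2023 and 1856 on day 7. Apoc1 rose by 1.92, and Fabp4, which capillary endothelium also makes, fell by 1.78. The lipid droplet protein Plin2 was called lower (-0.20), but not without the cyclosporine arrays (-0.18, adjusted p = 0.121) or without the peptide arrays (-0.22, adjusted p = 0.08), nor without the replicate block (adjusted p = 0.239) or the trend (adjusted p = 0.0533).

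Of 23 amino acid transport and response genes, 14 rose and 5 fell (median 0.36). The serine synthesis enzymes Psat1 and Phgdh rose by 2.11 ± 0.14 and 1.37 ± 0.21. Psat1 signals were 329.8, 331 and 267 on day 1 and 1311, 1430.2 and 1403 on day 7, and T cell arrays held 1349.9 to 1894. The glutamate transporter Slc1a3 rose by 1.25 and the lysosomal peptide transporter Slc15a3 by 1.47, while the glutamine transporter Slc38a3 fell by 0.93. Of 26 nucleotide synthesis genes, 11 rose and 5 fell, or 9 fell without the untreated arrays. These counts were near or below the 33.7% and 33% over all genes and are no result about the list. The rises included Samhd1, which degrades deoxynucleotides (2.26), Mthfd2, a mitochondrial folate enzyme (1.52), and the nucleoside kinases Tk1 (1.09) and Dck (0.71). The falls included Ctps1 (-0.52), Ppat (-0.46), Adsl (-0.38) and Cad (-0.35).

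The next 5 lists are the prostaglandin, extracellular nucleotide, sphingolipid, metal and glucocorticoid lists. Their counts were near or below the 33.7% that rose and 33% that fell over all genes, and are no result about these members. Of 24 prostaglandin and leukotriene genes tested, 6 rose, 6 fell and 12 did not pass. Thromboxane synthase (Tbxas1) rose by 2.42 ± 0.15 from 324, 436 and 359 to 2488, 1739.9 and 1990.2, the receptor Ptger2 by 2.25, and the cyclooxygenase Ptgs1 rose as well. The receptor for prostaglandin F, Ptgfr, fell by 1.85 ± 0.06 (adjusted p = 8.99e-07), from 1499, 1357 and 1451 on day 1 through 661, 690.2 and 702 on day 3 to 386, 382 and 388 on day 7, 3 days that did not overlap. Of 23 extracellular nucleotide and adenosine genes, 9 rose and 9 fell. The receptors P2ry10, P2ry14, P2ry12 and P2rx4 rose by 2.86, 1.67, 1.54 and 1.51. Nt5e (CD73), which makes adenosine outside the cell, fell by 0.84 from 2543, 2426 and 2324 to 1404, 1345 and 1313, and the receptor P2rx5 by 0.78. Of 22 sphingolipid genes 8 rose, Cers6 by 1.39, and 4 fell, Plpp3 by 0.84, or 2 without the cyclosporine arrays. Of 16 metal genes 5 rose and 4 fell. The zinc importers Slc39a2, Slc39a8 and Slc39a6 rose by 1.24, 1.05 and 0.90, and the metallothionein Mt2A fell by 0.90 from 5453, 3959 and 4613 to 3922, 1696 and 2261. Of 17 glucocorticoid-responsive genes 6 fell, among them Nr3c2 (-0.90) and Klf9 (-0.79), and Sgk1 rose by 0.71, or 2 rose without the untreated arrays.

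Day 3 was not a midpoint for all genes. From day 1 to day 3, 2883 probe sets (14.6%) were called higher and 2546 (12.9%) lower, and 53.1% of calls were higher. After centring each array on its median, 35.2% of calls were higher (2086 against 3837). From day 3 to day 7, 5315 (26.9%) were higher and 5812 (29.4%) lower. Both steps share the day 3 arrays, and the genes below were chosen because both steps were called, in opposite directions. Their step p-values were thus below 0.05 by the choice and are no further support. Gap43, a growth cone protein of regrowing axons that fibroblasts can also make, had signals of 234, 413 and 295 on day 1, 1049, 1276 and 1143 on day 3 and 203, 181 and 273 on day 7. The steps were 1.86 (adjusted p = 0.00169) and -2.33 (adjusted p = 3.31e-05). Its difference from day 1 to day 7 (-0.47) lost the call without the cyclosporine arrays (-0.15, adjusted p = 0.305). Trh, thyrotropin-releasing hormone, had signals of 225, 217 and 169, then 763, 639 and 582, then 58.6, 75.6 and 103, so day 7 lay below day 1 (-1.22, adjusted p = 0.000824). The fibrinogen gamma chain (Fgg) went from 77.4, 90.3 and 147 to 204, 401 and 404 and to 33.0, 59.1 and 31.1. Lbp, the lipopolysaccharide-binding protein, went from 1567, 1103 and 1363 to 4733, 4287 and 2856 and back to 1497, 1077 and 1827, and the serotonin receptor Htr2b from 92.5, 96.2 and 84.4 to 392, 283 and 331 and back to 161, 79.7 and 104. Lrrc17, Siglec5 and Pcdh20 had the same shape, with steps to day 3 of 1.51, 1.51 and 1.45 and later steps of -2.16, -1.51 and -2.39. The first step of Lrrc17 was not called without the cyclosporine arrays (1.53, adjusted p = 0.0566).

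**Figure D4:**
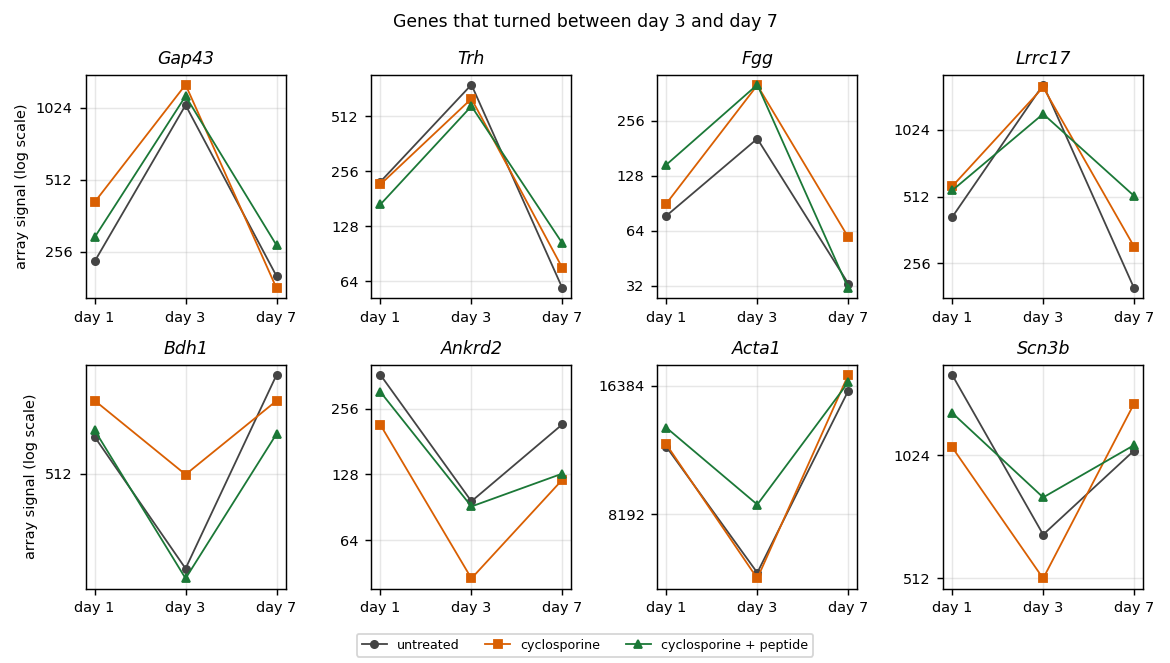
Array signals on a log scale on days 1, 3 and 7 for 4 genes that were high on day 3 (upper row) and 4 that were low on day 3 (lower row), with 1 line per treatment. In each panel all 3 lines turn at day 3, and for Gap43 the day 3 signals of 1049, 1276 and 1143 lie above all signals of days 1 and 7.

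The 8 genes with the largest turn the other way, chosen by the same rule, were lowest on day 3. Acta1, skeletal alpha-actin, which stressed heart muscle also makes, had signals of 11786, 11939 and 13064 on day 1, 5973, 5791 and 8629 on day 3 and 15941, 17365 and 16689.5 on day 7. Its steps were -0.87 (adjusted p = 0.00247) and 1.31 (adjusted p = 3.89e-05), and it ended 0.44 ± 0.11 above day 1. Ankrd2, a stretch-responsive ankyrin repeat protein, went from 365, 216 and 305 to 96.4, 42.8 and 91.3 and to 217, 121 and 129. The muscarinic receptor Chrm2 had signals of 267, 241 and 242 on day 1, 112, 104 and 103 on day 3 and 226, 194 and 166 on day 7, and its remaining difference from day 1 (-0.34) was not called without the cyclosporine arrays (-0.36, adjusted p = 0.0772) or without the peptide arrays (-0.26, adjusted p = 0.114). The sodium channel subunit Scn3b went from 1608, 1070.1 and 1299 to 654, 511 and 807 and to 1051, 1369 and 1083. Bdh1, an enzyme of ketone use, and the receptor Adra1d took steps of -0.90 and -0.79 to day 3 and of 1.05 and 0.88 after it. The first step of Bdh1 was not called without the peptide arrays (-0.79, adjusted p = 0.0698), nor that of Adra1d without the cyclosporine arrays (-0.74, adjusted p = 0.0728). Sypl2 and Cul2, the last of these 8, each lost a call without the peptide arrays (adjusted p = 0.0972 and 0.12 for the first step).

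The 3 treatment pairs rest on 1 array against 1 array each, so differences between them are values with no test. The genes here were chosen because their untreated pair differed most from the treated pairs, with both treated differences on the same side of the untreated one. That the treated grafts lie together is thus partly set by the choice. Arg1, arginase, had signals of 2196, 2404 and 1978 on day 1, 3129, 2598 and 3068 on day 3 and 7743, 1218 and 1247 on day 7, so it was higher on day 7 in the untreated graft and lower in both treated grafts. Il1rl1, the receptor of interleukin 33, was close in all grafts on day 3 (760.4, 723 and 783) and highest in the untreated graft on day 7 (547, 266 and 255). The macrophage elastase Mmp12 was 292, 578 and 519 on day 1 and 2075, 1189 and 824 on day 7, with differences of 2.76, 1.02 and 0.65. It was called higher over the 3 pairs (1.48), and by 0.84 without the untreated arrays. Scd differed on day 1 already (61.5, 964 and 242), and so its differences of 1.14, -2.58 and 0.55 also carry those day 1 levels. Mpzl2, an adhesion protein, had differences of 0.82, -1.20 and -0.71, and the immunoglobulin-like gene Ighl2 of 2.48, 0.23 and 1.23.

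Other genes lay lower in the untreated pair. The lymphoid chemokine Ccl19 had signals of 595, 553 and 592 on day 1, 878, 516 and 538 on day 3 and 612, 2099 and 2582 on day 7, and was higher on day 7 in the treated grafts alone. Its mean difference of 1.34 was not called without the cyclosporine arrays (1.07, adjusted p = 0.183) or without the peptide arrays (0.97, adjusted p = 0.18). Cxcl13, which draws B cells, was 2539, 1028 and 1271 on day 1 and 2888, 5145 and 5329.7 on day 7, and its mean difference of 1.51 lost the call in the same 2 fits (adjusted p = 0.062 and 0.0576). The secreted phospholipase Pla2g2a was 3164, 1691 and 3251 on day 1, 10490.5, 4040.2 and 2558 on day 3 and 2693, 7092 and 8326 on day 7. Abca8a, a lipid transporter, and Aldh1a1 fell in every pair and furthest in the untreated graft, by differences of -4.27, -2.55 and -2.12 and -4.53, -2.25 and -1.66. Rnase1l2 had differences of -2.17, -0.84 and 0.38. Marker lists moved with the treatments too, since the neutrophil median was -1.62, -0.62 and -0.55 and the B and plasma cell median 1.71, 0.57 and 1.30, and their part in these gaps was not tested. The erythroid and platelet list had 1 of 6 genes called lower, Pf4 (-0.55), which lost the call without the untreated arrays (-0.38, adjusted p = 0.0565) or without the cyclosporine arrays (-0.48, adjusted p = 0.0778), and list medians of -0.73, -0.19 and 0.42. Of 9 adipocyte genes, Cfd rose by 2.41 and Fasn by 0.38 (adjusted p = 0.0506 without the cyclosporine arrays), and Lipe fell. T cell arrays held 3768 to 6434.5 of Cfd, against 3878, 4693.5 and 5722 in the day 7 grafts.

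**Figure D5:**
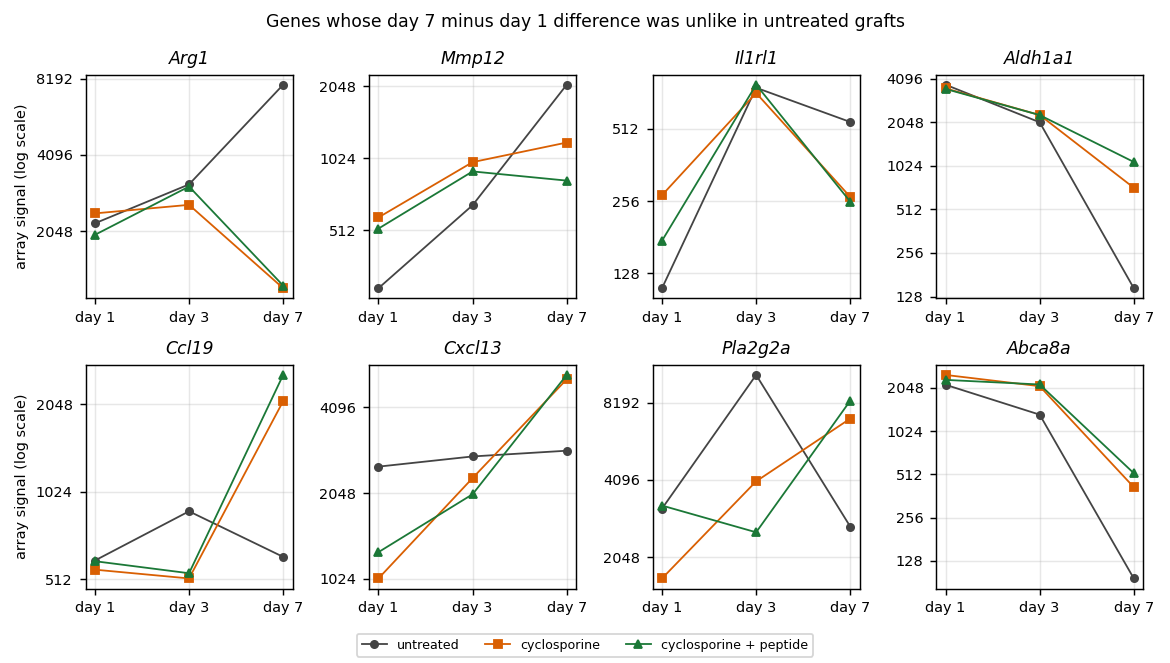
Array signals on a log scale on days 1, 3 and 7, with 1 line per treatment and 1 array per point. The 8 genes were picked from those with the largest gap between the untreated and treated pairs, not strictly by size of the gap. Scd, Rnase1l2, Mpzl2 and Ighl2, also of that choice, are not drawn. Arg1 reaches 7743 in the untreated graft on day 7 against 1218 and 1247 in the treated grafts, whereas Ccl19 stays at 612 there against 2099 and 2582.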

How the data were processed

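RNA of grafts and of T cells was labelled as biotin cRNA with an Enzo kit, per the labels' protocols, and hybridised to 1 rat array per sample. The deposited values are 1-colour intensities on a linear scale, 31099 probe sets per array, of which 771 values lie below 0; for the authors' scaling and software, the sources used here give nothing. Control probe sets (57) were left out. Negative values were set to 0, 16 was added and log2 taken. Probe sets above the array's 40th percentile in at least 3 heart arrays were tested (19737). Genes such as Mcpt1, Sytl3 and 1810009J06Rikl, dim on days 1 and 3, passed only through their day 7 arrays. Of 31042 probe sets, 20826 had 1 gene symbol, 436 several and 9780 none, from GEO's platform annotation. The brightest probe set stands for a gene.

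Day and treatment were fitted over the 9 heart arrays with limma 3.58.1 (R 4.3.3; lmFit, eBayes with trend, 4 residual degrees of freedom), with Benjamini-Hochberg adjustment over all tested probe sets. Arrays were paired by their treatment label, not by animal. The script was tested on simulated data. With 1 array per treatment and day, the number of arrays limits precision. The comparison, its gene lists and the rules for naming genes (the 25 largest rises and falls outside the usual lists, up to 4 called members per list and direction, the 8 largest turns each way at day 3, and the genes with the largest gap between treatments) were chosen with earlier results of these data known. Names outside these rules were chosen after their values were seen. Alternatives were quantile normalization, array-median centring, offsets of 1 and 64, other filters, fits without the trend, the treatment or day 3, and leaving out each treatment.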

Additional observations from a re-analysis of the deposited data

Results flagged for a closer look

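Only the genes named for the largest gap between the untreated and treated pairs were searched here, so the count is no total over all genes. That choice required both treated differences to lie on the same side of the untreated one, which favours the pattern below. In 3 of them the untreated graft moved one way from day 1 to day 7 and both treated grafts moved the other way. Arg1 (arginase) differed by 1.81 on the log2 scale in the untreated pair, by -0.97 with cyclosporine and by -0.66 with cyclosporine plus peptide. Mpzl2 (an adhesion protein) differed by 0.82 in the untreated pair and by -1.20 and -0.71 in the treated pairs. Pla2g2a (a secreted phospholipase A2) differed by -0.23 in the untreated pair and by 2.06 and 1.35 in the treated pairs. Each pair is 1 array against 1 array, and the difference between treatments was not tested.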

How the results depend on the processing

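The 266 named genes that were called were refitted under 12 settings, which gave 3106 values. No value changed sign, 62 lost the call, and 240 genes kept it in every setting that could be run. The counts of calls from day 1 to day 7 were 4564 to 5274 higher and 5213 to 6278 lower when each treatment was left out in turn. Without the replicate block, that is without the pairing by treatment, they were 5861 higher and 6449 lower. Day 3 minus day 1 was less stable. Leaving out each treatment gave 1013 to 1986 higher (2883 with all arrays) and 573 to 1496 lower (2546), and centring on array medians gave 3837 lower. For day 7 minus day 3 the same left-out fits gave 3294 to 4634 higher (5315). The causes were not tested, beyond fewer arrays in the left-out fits. List medians of the prostaglandin, nucleotide signalling, metal, Schwann and erythroid lists changed sign in some setting, so no direction is given for them. Values of dim genes depend on the offset, and signal over background limits what weak probe sets show.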
